A study of Drosophila melanogaster with 6 samples.

Results

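Branchless (bnl) is an FGF ligand of Drosophila, and its signaling, the oxygen-sensing pathway and the transcription factors of the tracheal system were followed here in RNA-seq of dissected male eyes. The 9 genes bnl, btl, stumps, sima, Hph, Ldh, trh, dysf and tgo were chosen by name, with results of these same libraries known, and 8 of them were read from the 14537 rows of genes or gene groups counted. Eyes were taken at day 40 (3 libraries) and at day 10 (3 libraries) after eclosion, and the libraries of an age are biological replicates. All flies of both ages carried UAS-GFP-Msp300KASH in attP2 and rh1-GAL4 with ry[506] in a w background, so a KASH-GFP tag was driven in outer photoreceptors, where the Rh1 promoter is active. They were kept at 25 degrees C in a 12:12 light and dark cycle. RNA came from the whole eye, so fewer cells of a type and less RNA per cell cannot be told apart.

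As background, Bnl is secreted and binds the receptor tyrosine kinase Breathless (Btl), and the adaptor Stumps connects the receptor to the Ras-MAPK relay. In embryos and larvae this signal directs the growth of tracheal branches, the air tubes that carry oxygen to tissues, towards cells that lack oxygen. Similar (Sima), the fly HIF-alpha, is marked for degradation by the prolyl hydroxylase Hph when oxygen is present, and otherwise pairs with Tango (Tgo) to switch on genes such as Ldh. Trachealess (Trh) and Dysfusion (Dysf) belong to the same bHLH-PAS family as Sima, also pair with Tgo, and act in tracheal identity and in the fusion of tracheal branches.

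The receptor gene btl is not analysed here. The other 8 genes were found, and all passed the filter on low counts. Single-gene rows held bnl, stumps, sima, dysf and Ldh. The remaining 3 genes were counted together with an overlapping gene, trh with lncRNA:CR45378, tgo with CG11986, and Hph with CR45033, and reads of the partners cannot be told apart.

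Counts on genes totaled 8476220 to 12686867 per library at day 40 and 8946125 to 15029770 at day 10. Day 10 replicate 1 had the fewest junction counts per 100 exonic counts, 16.01, against 17.76 to 19.85 in the other 5 libraries. The 7 photoreceptor markers, led by ninaE, the major rhodopsin, were all detected and summed to 756494 to 937107 normalized counts at day 40 and 640642 to 1167350 at day 10. The 7 tracheal markers counted, which include trh, were also all detected, with sums of 4579 to 5400 at day 40 and 4136 to 6260 at day 10. Sums of the 6 pigment and cone cell markers were 2176 to 2480 at day 40 and 3244 to 4990 at day 10, and those of the 5 hemocyte markers were 3475 to 4000 at day 40 and 5348 to 8144 at day 10. The ages did not overlap in these last sums, and Crys and w of the first list and Hml of the second were lower with an adjusted p under 0.1 (edgeR). No other marker of either list passed in either direction. All flies were in a w background, so the level of w may not reflect pigment cells alone. The 6 fat body markers summed to 90536 to 103014 at day 40 and 100159 to 127132 at day 10, with Yp1 and Lsp2 lower. Sums of the 5 glial markers were 18720 to 20749 at day 40 and 16716 to 22251 at day 10, and those of the 4 muscle markers counted were 3816 to 4215 at day 40 and 3944 to 6200 at day 10. The part of these shifts in the values below was not tested.

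The primer pairs that the study designed for bnl are shown first, because they mark E6, the exonic part that held most of the counts of bnl, and 2 junctions of the gene. An exonic part (E) is a stretch of exon shared by the same set of transcripts, and a junction (J) is the splice between 2 parts. Coordinates are on BDGP6, and each primer is written 5′ to 3′.
E6 primer at chr3R:19827973-19827992: ttcgtcaccagaatcagcag
E6 primer at chr3R:19827782-19827801: cgttcgttacggtccagatt
J10 primer in E4 at chr3R:19796271-19796290: gcgagctacgaggactcaag
J10 primer in E3 at chr3R:19795396-19795415: tggttggcttgagaggttct
J12 primer in E6 at chr3R:19827782-19827801: aatctggaccgtaacgaacg
J12 primer in E5 at chr3R:19800420-19800439: gcgtccatgcagagatacag
The J12 primer in E6 is the reverse complement of the second E6 primer, so the E6 and J12 pairs meet on the same 20 bases of E6. The E6 pair lies wholly inside E6 and can also copy RNA in which E6 is joined to E5, while the J12 pair spans that splice.

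**Figure D1:**
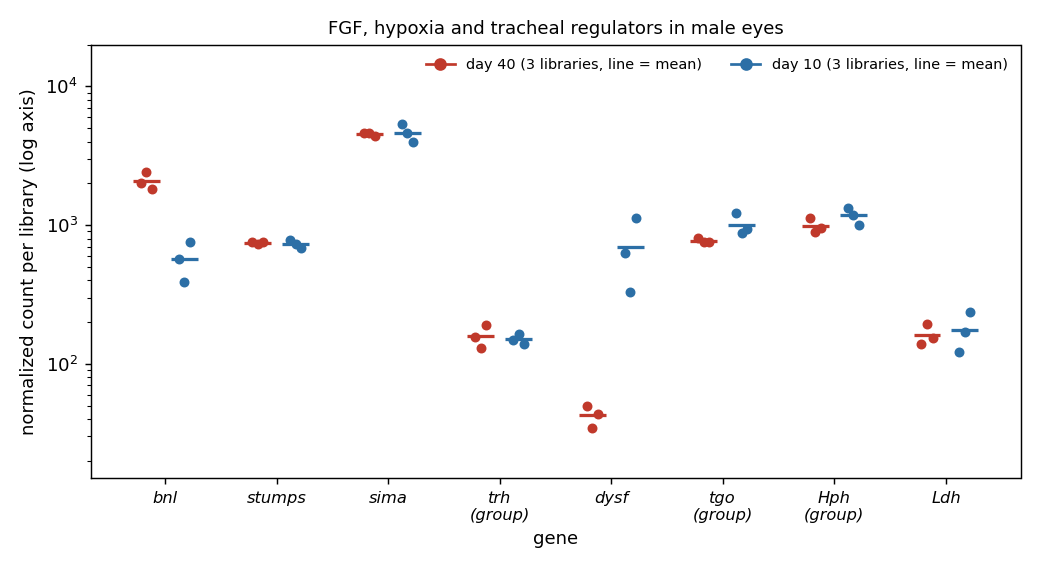
Normalized count of each gene in each library on a log axis, with day 40 in red and day 10 in blue (points, libraries; lines, means of 3). bnl sits higher at day 40 and dysf lower, tgo is lower by a small margin, and the other 5 genes overlap between ages.

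Counts on the ligand gene were higher at day 40, and most of them lay on 1 exonic part, E6, described below. bnl had 2017, 2406 and 1834 normalized counts at day 40, against 574, 387 and 757 at day 10, where a normalized count is a count divided by the size factor of its library. The lowest day 40 library lay above the highest day 10 library, and the mean was 3.64-fold higher (2086 ± 292 against 573 ± 185, SD, n = 3 each). The fitted log2 change, day 40 over day 10, was 1.85 ± 0.24 (SE). Leaving out 1 library at a time gave 1.62 to 2.14.

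The adaptor overlapped between ages. stumps had 755, 733 and 750 normalized counts at day 40, against 780, 734 and 686 at day 10, with a log2 change of 0.02 ± 0.10 (SE). The coefficient of variation of stumps was 1.5% at day 40 and 6.4% at day 10, the smallest spread of the 8 genes at both ages.

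In the oxygen-sensing pathway the levels overlapped. sima had 4611, 4630 and 4371 normalized counts at day 40, against 5331, 4649 and 3943 at day 10. The day 40 values lay inside the day 10 range, and the log2 change was −0.03 ± 0.13 (SE). The row of Hph with CR45033 had 1121, 898 and 959 at day 40, against 1328, 1188 and 1002 at day 10, with a log2 change of −0.24 ± 0.13. Ldh, which interconverts pyruvate and lactate, had 139, 195 and 154 at day 40, against 122, 168 and 235 at day 10. Its log2 change was −0.12 ± 0.26, and became 0.17 without day 10 replicate 3.

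Of the bHLH-PAS factors, dysf was lower at day 40. It had 49.3, 34.7 and 43.1 normalized counts at day 40, against 633, 332 and 1117 at day 10. The ages lay far apart, with a mean 16.4-fold higher at day 10, although the day 10 libraries differed among themselves with a coefficient of variation of 57.1% (17.3% at day 40). The log2 change was −4.05 ± 0.45 (SE), and −4.40 to −3.49 with 1 library left out. The row of trh with lncRNA:CR45378 had 155, 130 and 191 normalized counts at day 40, against 148, 163 and 139 at day 10, with a log2 change of 0.08 ± 0.19. The row of tgo, the shared partner, with CG11986 had 805, 753 and 756 at day 40, against 1215, 871 and 935 at day 10. All 3 day 40 libraries of tgo lay below the day 10 libraries, and the log2 change was −0.39 ± 0.14.

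Of the 8 genes, 1 was higher and 1 was lower with an adjusted p under 0.1 (edgeR, quasi-likelihood). Among the 9255 rows tested, 2.14% were higher and 1.98% were lower by the same rule. For 3 of the 8 (bnl, dysf and tgo) the libraries of the ages did not overlap, as for 20.2% of all rows tested. The genes were selected with this contrast known, so these counts describe the genes and nothing is read from them, and no p-value is given for a single one. The other 6 genes had log2 changes of −0.39 to 0.08. The median was −0.08 over the 8 genes and −0.01 over all rows tested.

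**Figure D2:**
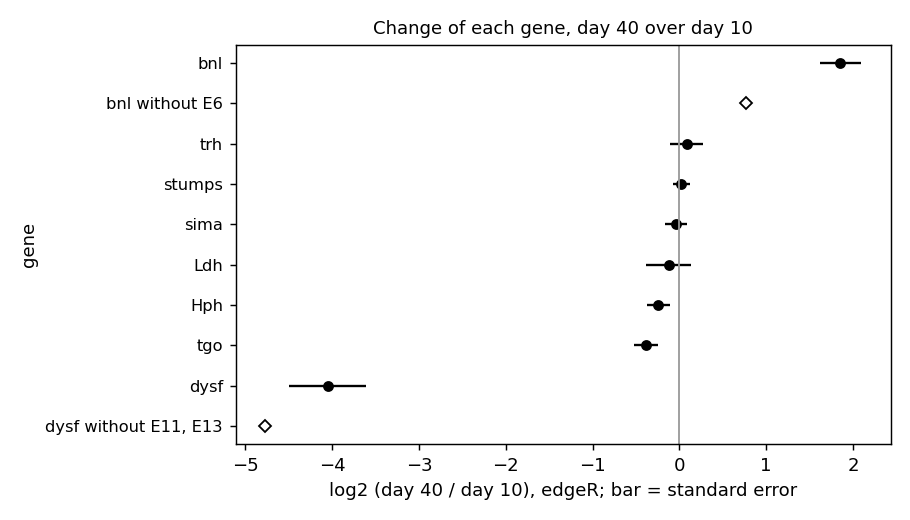
Fitted log2 change of each gene, day 40 over day 10 (filled points, 3 libraries per age). Bars are standard errors derived from the edgeR quasi-likelihood fit over all rows. Open diamonds show bnl and dysf after the counts on E6, or on E11 and E13, were taken away. bnl lies at 1.85 and at 0.77 without E6, dysf lies at −4.05, and the other genes lie between −0.39 and 0.08.

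The counts of bnl were concentrated on 1 exonic part. E6 covers 1389 bases (chr3R:19827654-19829042), belongs to all 3 annotated transcripts of bnl, and is joined to E5 by J12 and to E7 by J13. E6 had 1767, 2150 and 1625 normalized counts at day 40, against 426, 304 and 573 at day 10. The lowest day 40 library was well above the highest day 10 library, and the mean was 4.26-fold higher. As a share of the count of bnl in the same library (usage), E6 held 87.6%, 89.4% and 88.6% at day 40, against 74.2%, 78.6% and 75.6% at day 10. The usage of E6 did not overlap between ages, and its log2 change relative to the rest of the gene was 1.28 ± 0.23 (SE).

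Taken as a sum, the rest of bnl differed less. With the counts on E6 taken away, bnl had 251, 255 and 209 normalized counts at day 40, against 148, 82.9 and 184 at day 10. The ages still did not overlap, and the mean was 1.72-fold higher. The log2 change of this remainder was 0.77, against 1.85 with E6. This value was computed after the data were seen. Among the other parts, E4 averaged 140 ± 21.4 normalized counts at day 40 and 69.5 ± 22.6 at day 10 (SD, n = 3 each). The short part E5, next to E6 on its low-coordinate side, had 12, 25 and 23 reads at day 40, against 0, 2 and 14 at day 10. Its normalized means were 21.14 ± 6.17 at day 40 and 3.997 ± 5.65 at day 10. E4 and E5, and the junction J11 between them (12.2 ± 3.1 at day 40 and 3.25 ± 4.4 at day 10), were each higher at day 40 without overlap. The part at the high-coordinate end, E7, averaged 53.3 ± 15.6 at day 40 and 49.1 ± 19.8 at day 10, and its ages overlapped.

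The junctions at the ends of E6 differed from each other. J13 (chr3R:19829043-19836261) carried 17, 13 and 24 reads at day 40, against 27, 15 and 31 at day 10, and its normalized counts overlapped. J12 (chr3R:19800502-19827653) carried 5, 16 and 15 reads at day 40, against 0, 0 and 6 at day 10. At day 10 J12 was thus undetected in all but replicate 3, which allows up to 3 reads in each of the others. Its normalized counts, 6.67, 17.9 and 12.7 at day 40, against 0, 0 and 4.48 at day 10, were higher at day 40 without overlap, as those of E6 were, while its usage overlapped. Summed over both ends and normalized, the junctions gave 29.3, 32.5 and 33.0 at day 40, against 35.7, 11.5 and 27.6 at day 10. These sums overlapped, with a mean 1.27-fold higher at day 40. Over all 6 annotated junctions of bnl, normalized counts were 52.0, 60.4 and 60.8 at day 40, against 68.7, 20.7 and 65.7 at day 10. Those also overlapped, with a mean 1.12-fold higher at day 40. For each read on J12 or J13, E6 held 60.2, 66.2 and 49.3 reads at day 40, against 11.9, 26.4 and 20.7 at day 10. The ratio did not overlap between ages and averaged 58.6 ± 8.6 at day 40 and 19.7 ± 7.3 at day 10 (SD, n = 3 each). The few reads on the junctions limit the precision of this ratio.

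J10 (chr3R:19795516-19796213), which joins E3 to E4 and belongs to 2 of the 3 transcripts, carried 9, 11 and 21 reads at day 40, against 25, 10 and 40 at day 10. Its usage was 0.59%, 0.51% and 0.97% at day 40, against 5.76%, 1.98% and 3.94% at day 10. These shares did not overlap, and their log2 change relative to the rest of the gene was −2.50 ± 0.45 (SE). Normalized counts on J10 did overlap, with means of 14.02 ± 3.23 at day 40 and 23.53 ± 13.82 at day 10, so the lower share stands beside a larger total on E6. Of the 10 features of bnl tested, 6 had a lower share at day 40 without overlap and 1 (E6) a higher one. Over all features tested, 9.62% did not overlap. Shares within a gene depend on each other, so the 6 are not separate falls in level. Of these, E4 had higher normalized counts at day 40, and those of E2, E3, E7, J10 and J13 overlapped. J8 and J9 had no read in any library.

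**Figure D3:**
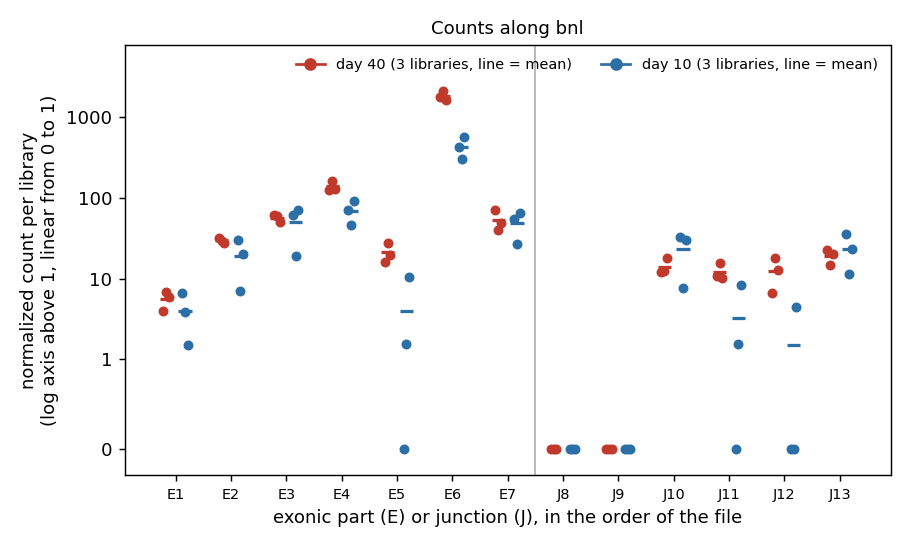
Normalized counts on each exonic part and junction of bnl in each library (day 40 in red left of day 10 in blue; lines, means of 3; the axis is logarithmic above 1 and linear below). E6 has a mean of 1847 at day 40 and 434 at day 10, J12 also lies higher at day 40 at few counts, and J13, at the other end of E6, has means of 19.2 at day 40 and 23.5 at day 10.

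The low level of dysf at day 40 ran along most of the gene. Its most covered part, E3 (chr3R:26077472-26078682, in all 3 transcripts), had 20, 8 and 11 reads at day 40, against 315, 285 and 914 at day 10. Parts E1 to E10 were each lower in every day 40 library than in any day 10 library, and so were junctions J14 to J22. J19 had no read in the 3 day 40 libraries, against 13, 15 and 60 at day 10. Its day 10 mean, 24.5 ± 17.8 normalized counts (SD, n = 3), was 23.1-fold above a floor of 3 reads over the day 40 group. The spread of the day 10 libraries is not included in that value. The junction with the largest mean normalized count, J18, averaged 0.82 ± 0.72 normalized counts at day 40 and 38.5 ± 24.9 at day 10 (SD, n = 3 each). Among the junctions of dysf that reached a mean of 5 normalized counts, J16 had the largest difference in mean usage and held 0%, 0% and 1.96% at day 40, against 3.13%, 4.86% and 6.68% at day 10.

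The high-coordinate end of dysf did not share this. E13 (chr3R:26098076-26098711, in 2 of the 3 transcripts) had 7, 8 and 9 reads at day 40, against 2, 2 and 3 at day 10. The day 40 libraries were all above the day 10 libraries, and the normalized mean was 8.63 ± 0.91 at day 40 and 2.14 ± 0.56 at day 10 (SD, n = 3 each). The usage of E13 was 18.9%, 25.8% and 17.6% at day 40, against 0.42%, 0.46% and 0.20% at day 10, a log2 change of 6.32 ± 0.52 (SE). E11 had 5, 11 and 8 reads at day 40, against 13, 11 and 18 at day 10, and its normalized counts overlapped. These counts are small, and a share of dysf at day 40 rests on totals of 31 to 51 reads per library. With the counts on E11 and E13 taken away, which was done after the data were seen, dysf had 33.3, 13.4 and 28.7 normalized counts at day 40, against 613, 322 and 1102 at day 10, and a log2 change of −4.77.

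**Figure D4:**
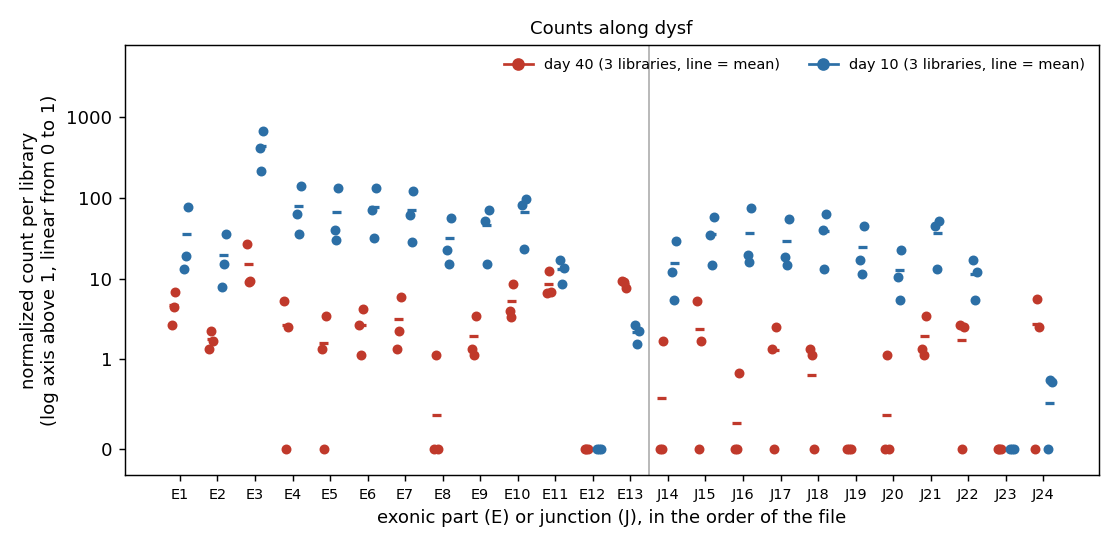
Normalized counts on each exonic part and junction of dysf in each library (day 40 in red left of day 10 in blue; lines, means of 3; the axis is logarithmic above 1 and linear below). E1 to E10 and J14 to J22 are lower at day 40, E11 overlaps, and E13 is higher, with means of 8.63 at day 40 and 2.14 at day 10.

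Over the 5 genes counted singly, 82 exonic parts and junctions were tested for usage, and for 18 the libraries of the ages did not overlap, against 9.62% of all 59968 features tested. Of these 18, bnl and dysf held 7 each, Ldh 3, sima 1 and stumps none. At an adjusted p under 0.05 in edgeR's quasi-likelihood test, E13 of dysf was the only one called, and 0.00334% of all features were called. E13 averaged 5.39 normalized counts over the 6 libraries. It passed the minimum of 5 only through day 40 (8.63, against 2.14 at day 10), and was not tested at a minimum of 10. Its call is therefore no evidence of its own. The DESeq2 likelihood ratio test called 25 features, of which 6 were in these genes (E6, E7 and J10 of bnl, E11 and E13 of dysf, and E1 of Ldh). In edgeR no feature was called when any library other than day 10 replicate 1 was left out, while the log2 change in the usage of E13 stayed between 5.78 and 6.55. The choice of bnl and dysf was made with these values in view, so nothing is read from the counts.

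Ldh and sima held features that separated the ages within a gene level that overlapped. E1 of Ldh, at the low-coordinate end and in 1 of 4 transcripts, was named after its values were seen and had 14, 20 and 18 reads at day 40, against 0, 4 and 5 at day 10. Its usage was 13.5%, 11.5% and 9.89% at day 40, against 0%, 1.83% and 1.59% at day 10. These shares did not overlap and had a log2 change of 3.15 ± 0.56 (SE). Like E13 of dysf, E1 passed the minimum of 5 only through day 40 (mean 18.8 normalized counts, against 2.27 at day 10). Its separation and its call in DESeq2 are therefore no evidence of their own. E4 of Ldh, with a mean usage of 18.5% ± 3.1 at day 40 and 24.1% ± 1.9 at day 10 (SD, n = 3 each), and J8 separated the ages as well. E2, the most covered part of Ldh, held 63.5%, 52.3% and 53.3% of its count at day 40, against 60.9%, 53.0% and 54.6% at day 10, and overlapped. E3 of Ldh held 42.3%, 54.6% and 49.5% at day 40, against 16.3%, 50.2% and 42.9% at day 10. The value of 16.3% is from day 10 replicate 1, the library with the fewest junction counts, and J8 of Ldh was also lowest there, with 6.52% against 15.2% to 18.3% in the other 5 libraries. The log2 change in the usage of E3 was 0.71 ± 0.58 (SE), and 0.16 without that library.

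For sima, E10 (chr3R:30104103-30104809) held the largest share, 37.9%, 37.3% and 35.2% at day 40, against 31.6%, 35.1% and 36.8% at day 10. Its ages overlapped. E14 held 10.79%, 11.03% and 11.21% at day 40, against 16.17%, 11.87% and 12.98% at day 10, without overlap but with a log2 change of only −0.34 ± 0.23 (SE). J25, the junction with the largest mean count, and J24, the one with the largest difference in mean usage, overlapped. In stumps, E12 held 67.1%, 71.9% and 72.2% of the count at day 40, against 69.8%, 72.4% and 69.5% at day 10. E2 and the junctions J16 and J21 of stumps overlapped as well, so no feature of stumps separated the ages.

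Per kilobase of exon, the 5 genes counted singly kept sima at the top at both ages. sima had 631 ± 20.1 normalized counts per kilobase at day 40 and 645 ± 96.5 at day 10 (SD, n = 3 each). bnl was next at day 40 with 457 ± 64.0, and had 126 ± 40.6 at day 10. stumps had 137 ± 2.1 at day 40 and 134 ± 8.6 at day 10. Ldh was below stumps, with 83.6 ± 14.9 at day 40 and 90.1 ± 29.4 at day 10. dysf was the lowest of the 5 at day 40 with 10.0 ± 1.7, and had 164 ± 93.8 at day 10. At day 40 no neighbours in this order overlapped. At day 10 the libraries of dysf, stumps and bnl overlapped one another, and those of Ldh overlapped bnl and dysf but not stumps. By the longest exonic part of each gene alone, bnl came first at day 40 with 1330 on E6, against 299 for sima on E14.

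The pattern of bnl over the 6 libraries was most like that of the row joining the small heat shock gene Hsp22 with CG4456, by the root mean square difference of gene-centred log2 CPM (0.17 over 6 libraries, 9255 rows compared). That row had 255, 283 and 247 normalized counts at day 40, against 72.7, 62.9 and 114 at day 10. eIF4E3 (0.26) and CG15784 (0.27) came next. The pattern of dysf was most like those of snoRNA:Psi18S-841d (0.23), FBgn0267727 (0.33) and CG33783 (0.40). At day 40 snoRNA:Psi18S-841d had 1.33, 0 and 0 normalized counts and CG33783 had 1.33, 0 and 2.54, so both were near the floor there. FBgn0267727 had 10.7, 13.4 and 16.1 normalized counts at day 40, against 219, 169 and 485 at day 10. These likenesses are a description with no test.

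The other genes of these pathways were read from 7 lists that do not hold the 9 genes. Of 88 listed genes, 81 rows were matched and tested, and 2 fell and none rose with an adjusted p under 0.1, against the 1.98% and 2.14% of all rows given above. pnt, the ETS factor at the end of the Ras-MAPK relay, fell to 708, 762 and 712 normalized counts at day 40, against 1153, 929 and 1331 at day 10, a log2 change of −0.65 ± 0.15 (SE, adjusted p 0.063, edgeR). obst-A, a chitin-binding protein of the apical matrix, fell to 73.3, 79.5 and 83.7 at day 40, against 171, 160 and 125 at day 10, a log2 change of −0.94 ± 0.19 (SE, adjusted p 0.043, edgeR). For both genes the day 40 libraries lay below the day 10 libraries. Neither passed when any 1 of the day 40 libraries was left out, where the adjusted p (edgeR) was 0.205 to 0.226 for pnt and 0.137 to 0.181 for obst-A, nor did pnt without day 10 replicate 3 (0.128) or obst-A without day 10 replicate 2 (0.1).

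In the other lists no gene passed the test. Of the remaining FGF genes, the ligands pyr and ths and the receptor htl had log2 changes of −0.04 ± 0.17, −0.10 ± 0.18 and 0.06 ± 0.17 (SE). The 14 other relay rows ranged from −0.27 for sty, the feedback inhibitor Sprouty, to 0.36 for Shc. The 10 heparan sulfate rows, for proteoglycans and for enzymes that make or modify their sugar chains, ranged from −0.13 to 0.24. The 14 hypoxia rows ranged from −0.50 ± 0.23 for the group row of Gyc89Da and Gyc89Db to 0.70 ± 0.34 for Thor. Their median was −0.0006. The 13 glycolysis rows ranged from −0.35 to 0.46, and the 8 other bHLH-PAS rows from −0.44 to 0.31. Of the tracheal genes, 17 of 18 did not pass, with Mmp1, a matrix metalloprotease counted in a group, the highest at 0.46 ± 0.14. The median log2 change over all 81 rows was −0.02, against −0.01 over all rows tested. Of the 81 rows, 13 had an unadjusted p under 0.05 (edgeR). The same share over all rows tested is not given here, so nothing is read from this count. For 17 of the 81 rows the libraries of the ages did not overlap, against 20.2% of all rows tested.

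**Figure D5:**
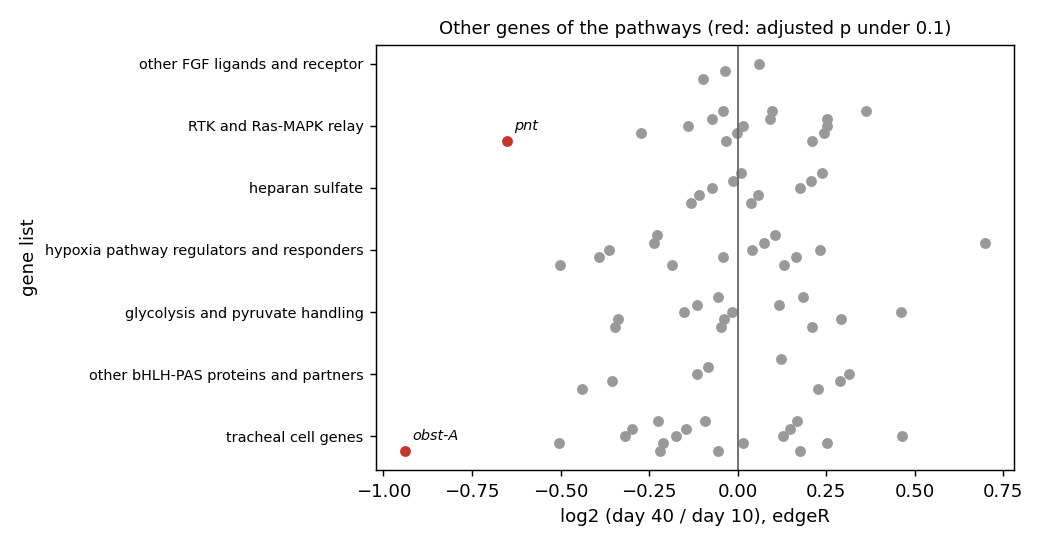
Fitted log2 change, day 40 over day 10, of each of the 81 rows in the 7 lists, with rows past an adjusted p of 0.1 in red. The 2 red points are pnt at −0.65 and obst-A at −0.94, and the other rows lie between −0.50 and 0.70.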

How the data were processed

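Dissected eyes of male flies at day 40 and day 10 were compared (3 libraries each). The authors deposited raw read counts, one file per library, over genes, their exonic parts and their known or new splice junctions. Trimmomatic, TopHat and the build BDGP6 are named in the submitters' processing notes, with versions and annotation release not given in the sources used here. Positions of parts and junctions were taken from the deposited table of the authors' comparisons, whose other columns (fold changes, p-values and fitted expression) were not used. Overlapping genes were counted together and have no positions in that table. Positions were used with 1 added to starts, which count from 0.

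Genes were tested with edgeR 4.0.16 in R 4.3.3 (quasi-likelihood, TMM, filterByExpr, Benjamini-Hochberg, threshold 0.1). Usage was tested on the counts of a feature and of the rest of its gene (minimum mean normalized count 5, threshold 0.05). A read that crosses a junction is counted on several features, so shares do not add to 100%. DESeq2 1.42.0, other normalization, no filter, other minimums, a replicate block and leaving out libraries were alternatives. Patterns were compared on log2 CPM with a prior count of 2. Both tests were checked on simulated data. The simulated usage changes were placed only on features with larger mean counts than E13 of dysf, so that check does not cover features with so few counts. Libraries of an age differed by more than counting noise. A floor of 3 counts stands for a count of 0 and covers counting error only. The 9 genes and the lists were chosen with earlier results of these data known. The 8 genes read were all named, and btl is not reported here. Also named were the parts and junctions of largest count and largest usage difference, the qPCR targets of bnl, and E13 of dysf. So were up to 5 passing genes per list and direction, and the 3 most alike genes for bnl and dysf. Other parts and junctions of bnl, dysf and Ldh, and list genes that did not pass, were named outside this rule as description.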

Additional observations from a re-analysis of the deposited data

How the results depend on the processing

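In the gene-level alternatives run on whole-gene counts, the log2 change was 1.62 to 2.14 for bnl and −4.40 to −3.49 for dysf. Both genes were chosen with this contrast of the same libraries known, so nothing is read from their passing a threshold. Without the counts on E6 the log2 change of bnl was 0.77, and without those on E11 and E13 that of dysf was −4.77. The signs of stumps, sima, trh and Ldh each changed when 1 library was left out. The count of genes past the threshold, 381, was 601 in DESeq2, 221 at an adjusted p under 0.05 and 116 to 459 with 1 library left out. The count of listed pathway genes, 2, was 1 at an adjusted p under 0.05 and 0 to 3 with 1 library left out. The count of features past the usage threshold, 2 in edgeR (1814 at an unadjusted p under 0.05), was 25 in DESeq2, 1 with a minimum mean count of 10 and 0 to 2 with 1 library left out. The replicate numbers did not pair the samples (correlations of same-numbered libraries 0, −0.01 and 0.15), and with a replicate block the counts were 464 genes, 4 listed genes and 0 features (1539 at an unadjusted p under 0.05). Low counts on J12 of bnl and on dysf at day 40 limit what depth can show.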
